A study of Rattus norvegicus with 352 samples.

Results

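The genes described here are 9 members of the circadian clock: the activators Bmal1, Clock and Npas2, the genes Cry1 and Nfil3, whose transcripts run in a phase opposite to the output gene Dbp or late against it, the nuclear receptor genes Rora and Rorb, and the casein kinase genes Csnk1d and Csnk1e. They were taken by symbol from a table of 38354 genes, and all 9 had a mean level high enough to be among the 16683 genes tested. RNA was sequenced from whole brain hemispheres of naive, untreated outbred heterogeneous stock rats, which descend from several inbred founder strains. All libraries analysed here form 1 group, so the comparisons are between genes across libraries and not between treatments. The labels state neither the hour of dissection nor the sex or age of the animals, and they do not spell out that each library is a separate rat, so a p-value measures only the spread between libraries. A hemisphere mixes many regions and cell types, so fewer cells of a type and less RNA per cell cannot be told apart.

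In the clock, the BMAL1 protein pairs with CLOCK or with its relative NPAS2 and binds E-boxes in the genes of the PER and CRY repressors, of the nuclear receptors REV-ERB alpha and beta (Nr1d1 and Nr1d2), and of output factors such as DBP. The PER and CRY proteins then hold the activators back, while REV-ERB proteins repress and ROR proteins activate Bmal1 itself through a shared element. NFIL3 competes with DBP, TEF and HLF for D-box elements, and casein kinases delta and epsilon phosphorylate PER proteins and so set the pace of the loop. In most tissues Bmal1, Clock, Npas2 and Nfil3 transcripts are high when Dbp and the Nr1d transcripts are low, and Cry1 peaks later than the other E-box genes.

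Library totals ran from 5418230 to 42980793 estimated counts with a median of 21881769. A level here is log2(CPM + 1), with CPM the count after scaling a library to a total of 1000000, and a fold is 2 to the power of a difference on that scale. Levels are not compared between genes, since no transcript lengths were used. The library numbered 4 in accession order, called brain 4, stood apart: the summed CPM of 8 cerebellar marker genes was 22.4 in it against 375 in the next lowest library and a median of 694. Dbp fell into separate levels, with a mean level of 6.60 ± 0.21 (SD) in 50 libraries and 7.44 ± 0.20 (SD) in the other 85.4% of libraries. Nr1d2 did so too, with 45 libraries in its lower level, 40 of which were also in the lower Dbp level. The r of the 9 genes with either gene is therefore given within that gene's own levels, although counts of called genes are over all libraries. The called pairs of the 9 genes are given both over all libraries and within the Dbp levels. Dividing by Dbp narrows the range of genes that follow Dbp, such as Bmal1. A smaller r within a level is therefore not by itself a weaker relation. The lower and higher Dbp levels met without a gap (highest of the lower 6.94, lowest of the higher 6.95), so a few libraries near the border could belong to either.

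Among the activators, Bmal1 had the largest SD between libraries and Clock the smallest. Bmal1 (chr1:176766222-176864741 on the RefSeq assembly GRCr8) ran from a level of 4.43 through a median of 4.90 to 5.65, with a mean of 4.94 ± 0.19 (SD). In CPM these were 20.5, 28.9 and 49.2. Its values had a tail toward high levels: a fit with 2 components put 48 libraries in the higher one, but the components lay 3.47 SD apart, under the 4 SD used here to speak of separate levels. Clock (chr14:32262747-32346872), which codes for the usual partner of BMAL1, stayed closer together, from 6.17 through 6.49 to 6.80, with a mean of 6.50 ± 0.10 (SD). Npas2 (chr9:48959225-49138036), the forebrain relative of Clock, ran from 5.51 through 5.90 to 6.42, with a mean of 5.91 ± 0.16 (SD). Between the 5th and 95th percentiles of libraries the fold was 1.56 for Bmal1, 1.26 for Clock and 1.44 for Npas2.

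Nfil3 and Cry1 had the largest SD of the 9 genes. Cry1 (chr7:20417526-20481791), a repressor of the CLOCK and BMAL1 pair, ran from 3.90 through 4.63 to 5.06, with a mean of 4.59 ± 0.22 (SD), and its tail lay toward low levels. Nfil3 (chr17:12432376-12447605), a repressor at D-boxes, ran from 2.95 through 3.59 to 4.39, with a mean of 3.60 ± 0.28 (SD). The fold between the 5th and 95th percentiles was 1.65 for Cry1 and 1.91 for Nfil3. The median Nfil3 value was 11.1 CPM, and the SD that counting alone would give was 0.09 on the log2 scale, below its observed SD.

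The receptor genes differed in where their extremes lay. Rora (chr8:78182710-78915730), an activator of Bmal1 that is also needed for Purkinje cells of the cerebellum, had a mean of 5.88 ± 0.13 (SD) and a median of 5.88. Its lowest value, 5.36, was that of brain 4, the library almost without cerebellar markers, and the next lowest was 5.56. The highest was 6.21. Rorb (chr1:225790216-225970973), a receptor of cortical layer and retinal neurons, ran from 2.99 through 3.60 to 4.21, with a mean of 3.59 ± 0.16 (SD). Both of its extremes were single libraries, the neighbours being at 3.18 and 3.96. At a median of 11.1 CPM, its counting SD was 0.09.

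The kinase genes had the smallest SD of the 9, below that of Clock. Csnk1d (chr10:106713497-106754953) had a mean level of 7.22 ± 0.05 (SD), from 6.99 to 7.37. Csnk1e (chr7:112863726-112887338) had a mean of 6.44 ± 0.07 (SD), from 6.25 to 6.63. From the 5th to the 95th percentile Csnk1d changed 1.13-fold and Csnk1e 1.17-fold.

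**Figure D1:**
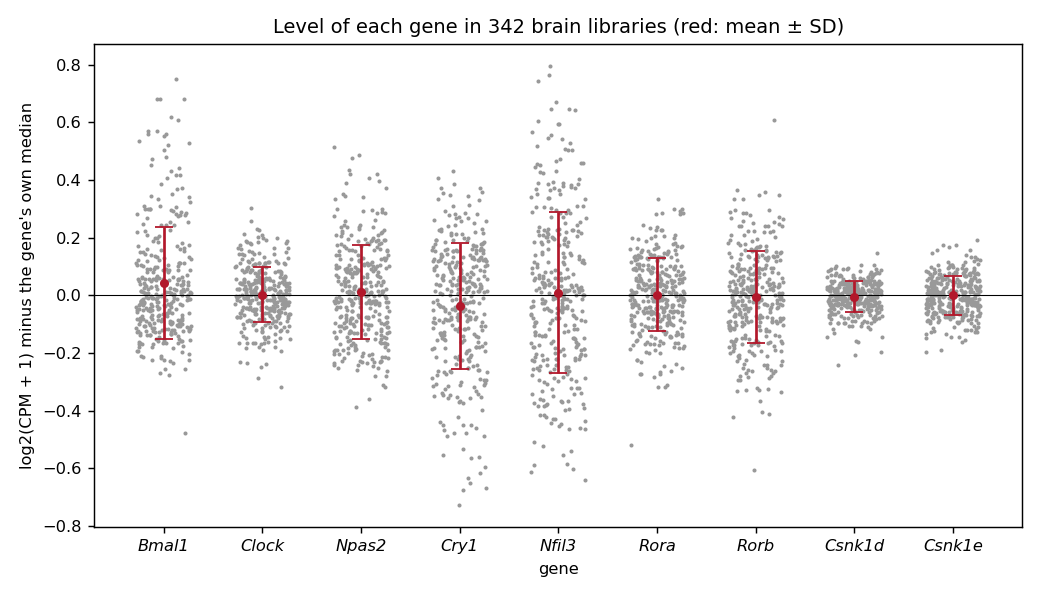
Levels of the 9 genes in all libraries, as log2(CPM + 1) minus the gene's own median (y axis) by gene (x axis); each grey point is a library, and red marks give the mean and SD. Nfil3 and Cry1 spread most and Csnk1d least (SD 0.28, 0.22 and 0.05), Bmal1 has a tail of high libraries and Cry1 a tail of low ones.

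To compare spread between genes of different level, each SD was divided by the SD that a trend over all tested genes gives at the same mean level. The ratio was 1.87 for Cry1, 1.86 for Nfil3, 1.81 for Npas2, 1.79 for Bmal1, 1.40 for Rora, 1.16 for Clock, 1.06 for Rorb, 0.813 for Csnk1e and 0.690 for Csnk1d. The ratio was above 1 in 7 of the 9 genes and their median was 1.40, beside 0.987 over all tested genes, but 0 of the 9 reached 2 times the trend, which 5.22% of all genes did. Of 13 output and repressor genes (Dbp, Tef, Hlf, Per1, Per2, Per3, Nr1d1, Nr1d2, Ciart, Cry2, Bhlhe40, Bhlhe41 and Usp2), 7 reached it, with a median ratio of 2.16. Of 13 further core and modifier genes, such as kinases and ubiquitin ligase subunits of the clock, 0 did, with a median of 0.911. Libraries were also divided into blocks that share the first 6 characters of their identifier, a division whose meaning the labels do not state. Within blocks the ratio ran from 1.27 to 2.21 for Bmal1, from 1.46 to 2.57 for Cry1 and from 1.11 to 2.60 for Nfil3.

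Between those 7 blocks, 1 of the 9 genes differed by limma's moderated F-test with Benjamini-Hochberg adjustment over all genes, beside 8.21% of all genes. That gene was Rora, whose block means lay between 5.82 and 5.93 (adjusted p = 0.000763). The labels do not say what the characters of an identifier stand for.

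Clock, Npas2 and Nfil3 were each higher where Bmal1 was higher, while no relation of Cry1 with Bmal1 was detected over all libraries. Every tested gene was regressed with limma on the level of each of the 9 genes in turn, and a gene was called where the adjusted p was under 0.05. In the Bmal1 fit, Clock, Npas2 and Nfil3 were called higher with Bmal1, and Rora and Rorb lower, so that 3 of the other 8 genes were higher and 2 lower. Of all genes, 8.39% were called higher and 10.2% lower in that fit. Over the 36 pairs of the 9 genes, 12 were called positive, 9 negative and 15 in neither direction, counting a pair only where it passed in both of its fits.

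Bmal1 and Clock had a Pearson r of 0.50 (95% interval 0.41 to 0.57) and a Spearman rho of 0.42, each with a permutation p of 1e-05, the smallest that 100000 permutations can give. Without the 2 libraries farthest from the Bmal1 median r was 0.48, and within blocks it ran from 0.01 to 0.77. Within the Dbp levels r was smaller, at 0.43 in the lower and 0.22 in the higher one. For Bmal1 and Npas2, r was 0.49 and rho 0.48 (permutation p = 1e-05 for each), with 0.40 to 0.54 within blocks, 0.37 in the lower Dbp level and 0.35 in the higher. Of the relations of Bmal1 with Clock, Npas2 and Nfil3, that with Npas2 thus varied least between blocks and levels. For Bmal1 and Nfil3, r was 0.48 and rho 0.38 (permutation p = 1e-05 for each), with 0.43 in the lower Dbp level and 0.20 in the higher; in blocks it ran from -0.20 to 0.92, positive in 6 of 7. In the scatter of Bmal1 against these genes, many libraries of the lower Dbp level lie toward the upper right, but not all. Brain 92 of that level had a Bmal1 level of 4.89 and an Npas2 level of 5.71, below the medians of 4.90 and 5.90.

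Bmal1 and Cry1 had an r of -0.08 (95% interval -0.19 to 0.02, permutation p = 0.118) and a rho of -0.02 (permutation p = 0.675), with -0.18 to 0.34 within blocks, so no relation was detected over all libraries. Inside the Dbp levels r was -0.25 in the lower and -0.21 in the higher, and the latter was called (limma adjusted p = 0.00733). With marker scores of 6 brain regions and cell types as covariates the pooled relation was also called (partial r -0.15, adjusted p = 0.0353).

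**Figure D2:**
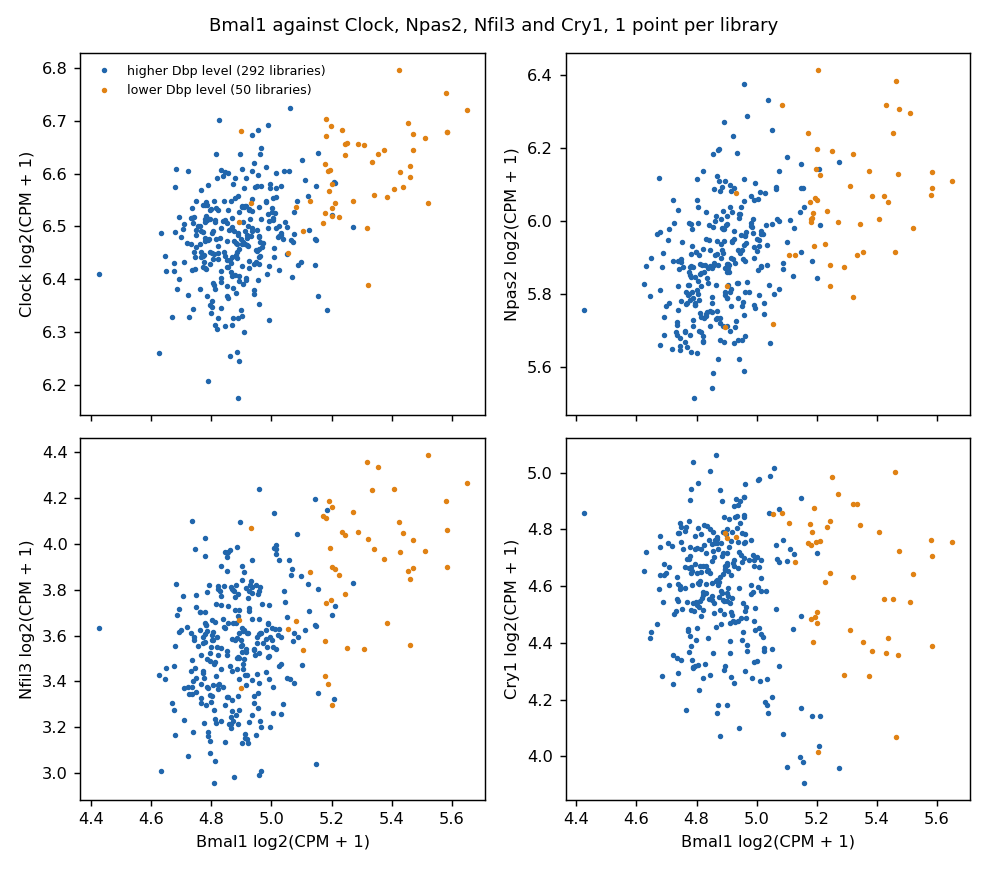
Level of Bmal1 (x axis, log2(CPM + 1)) against Clock, Npas2, Nfil3 and Cry1 (y axes, same unit), 1 point per library, orange for the 50 libraries of the lower Dbp level and blue for those of the higher. The upper panels and the lower left one slope upward (r 0.50, 0.49 and 0.48), and Cry1 has no slope over all libraries (r -0.08).

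Bmal1 was weakly lower where the receptors were higher, with r = -0.16 for Rora (permutation p = 0.00369, rho -0.13) and -0.19 for Rorb (permutation p = 0.00023, rho -0.18). Within blocks these ran from -0.23 to 0.18 and from -0.49 to 0.18. The Rora relation was no longer called within the higher Dbp level, where r was -0.05, and r was -0.00085 in the lower. For Rorb these were -0.19 and -0.27.

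Clock and Npas2, which code for alternative partners of BMAL1, had r = 0.23 with each other (permutation p = 4e-05 for r and 6e-05 for rho, rho 0.23, -0.33 to 0.35 within blocks) with 0.15 within the lower Dbp level and 0.059 within the higher, where the pair was not called. Whether this differs from the r of each with Bmal1 was not tested. In its own fit Clock had 5 of the 8 other genes higher and 2 lower, but 26.1% of all genes were called higher and 25.9% lower with Clock, so single calls say little there. Its relation with Nfil3 (r = 0.20, permutation p = 0.00014, rho 0.18) was 0.095 within the lower Dbp level and -0.019 within the higher. With Rora r was 0.15 (0.12 and 0.28 in the lower and higher Dbp levels) and with Rorb 0.18 (0.29 and 0.24). The Rora relation was not called with marker scores as covariates (partial r 0.03) or without the 2 farthest libraries (r 0.14, adjusted p = 0.0781). With Csnk1e r was -0.24 (permutation p = 1e-05, rho -0.23), negative in 7 of 7 blocks and -0.087 and -0.19 in the Dbp levels. With Csnk1d it was -0.13, with -0.13 and -0.17 in the Dbp levels, and 0.015 when libraries were scaled by median ratios.

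Npas2 had 3 of the 8 others higher and 4 lower, where 37.8% of all genes were called higher and 29% lower. It was lower where Csnk1d was higher (r = -0.42, rho -0.41, permutation p = 1e-05 for each, -0.73 to -0.07 within blocks) and higher where Csnk1e was higher (r = 0.32, rho 0.32, permutation p = 1e-05 for each, 0.07 to 0.62 within blocks). The Csnk1e relation was not seen with marker scores of regions and cell types as covariates, where partial r was -0.033. Within the lower and higher Dbp levels Npas2 had -0.68 and -0.44 with Csnk1d, and 0.29 and 0.45 with Csnk1e. Npas2 was also lower with Cry1 (r = -0.29, rho -0.25, permutation p of 1e-05 and 2e-05, -0.54 to 0.42 within blocks, -0.43 and -0.33 in the Dbp levels). Its relations with Rora (r = -0.21, -0.053 and -0.18 in the Dbp levels) and Rorb (r = -0.13, -0.24 and -0.086) were weak. The Rora one was not called with marker scores as covariates (partial r -0.09), and the Rorb one was lost without the 2 farthest libraries (r -0.11, adjusted p = 0.0541), with no minimum on the level of tested genes (adjusted p = 0.0792), with the library total as a covariate (partial r -0.13, adjusted p = 0.0516) and within either Dbp level.

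Cry1, Nfil3 and Csnk1d formed a second set whose 3 pairs were all positive. Cry1 and Nfil3 had r = 0.28 (rho 0.30, permutation p = 1e-05 for each, 0.15 to 0.45 within blocks), Cry1 and Csnk1d r = 0.35 (rho 0.35, permutation p = 1e-05 for each, 0.06 to 0.58 within blocks), and Nfil3 and Csnk1d r = 0.28 (rho 0.26, permutation p = 1e-05 for each, 0.18 to 0.49 within blocks). In the lower and higher Dbp levels r was 0.15 and 0.30 for the first of these pairs, 0.32 and 0.35 for the next, and 0.30 in both levels for Nfil3 and Csnk1d. In the Cry1 fit 2 of 8 were higher and 1 lower, beside 15.5% and 24.8% of all genes. In the Nfil3 fit 4 of 8 were higher and 0 lower, beside 15.9% and 23.3%. Nfil3 thus followed both Bmal1 and Cry1, between which no relation was detected over all libraries.

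Rora and Rorb had 2 of 8 higher and 2 lower each. All genes called higher and lower were 21.3% and 16.4% in the Rora fit, and 14.2% and 22.7% in the Rorb fit. The receptors were weakly higher together (r = 0.17, rho 0.19, permutation p of 0.00213 and 0.00068, -0.02 to 0.53 within blocks, 0.17 and 0.15 in the Dbp levels). Csnk1d had 2 higher and 3 lower, beside 22.4% and 37.3% of all genes, and Csnk1e 1 higher and 4 lower, beside 40% and 22.3%. The 2 kinase genes were opposed to each other (r = -0.19, rho -0.19, permutation p of 0.00053 and 0.00052, -0.14 and -0.19 in the Dbp levels), and this was gone with marker scores as covariates, where partial r was 0.018.

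**Figure D3:**
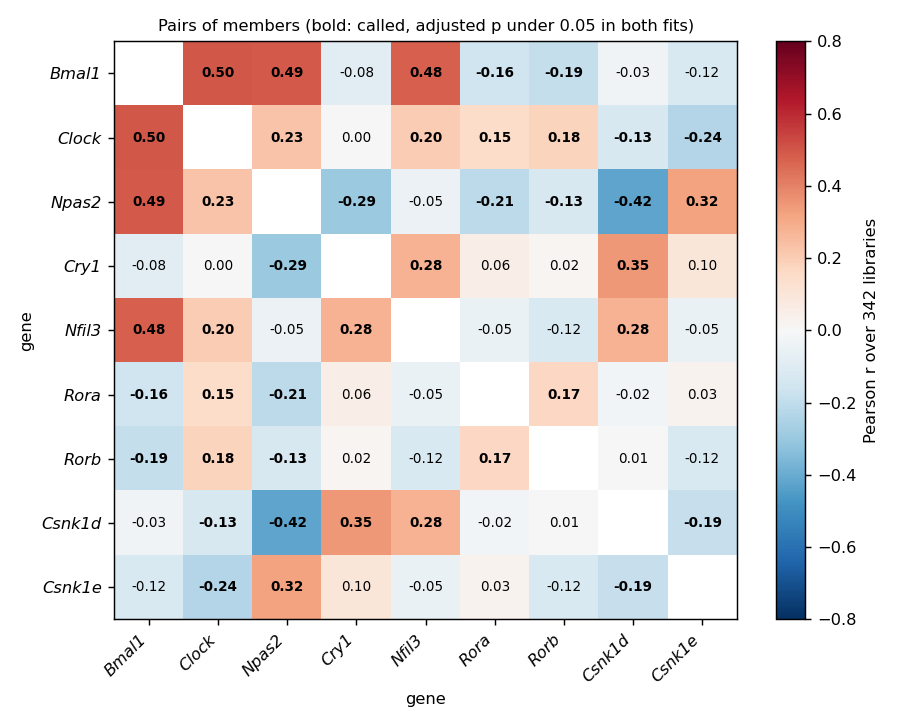
Pearson r over all libraries for the 36 pairs of the 9 genes (both axes list the genes; colour and number give r; bold marks a called pair). Bmal1 is red with Clock, Npas2 and Nfil3 (0.50, 0.49 and 0.48), Cry1 is red with Nfil3 and Csnk1d (0.28 and 0.35), and the bluest pair is Npas2 with Csnk1d (-0.42).

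Of the 21 called pairs, 21 had the same sign by Spearman rho and without the 2 farthest libraries, 12 had the same sign in all 7 blocks, and 20 had the same sign within the higher Dbp level, the exception being Clock with Nfil3. The largest permutation p among them was 0.0179 for r and 0.0416 for rho.

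The output and repressor genes were lower where Bmal1 was higher. All 13 were called lower with Bmal1, beside 10.2% of all genes, with a median r of -0.55 where the median over all genes was 0.0021. Dbp, a D-box activator and direct E-box target, had an r with Bmal1 of -0.78 within its lower level and -0.53 within its higher level (permutation p = 1e-05 for each; rho -0.75 and -0.49). Nr1d2, a REV-ERB repressor of Bmal1, had -0.55 within its own lower level (permutation p = 0.00014, rho -0.57) and -0.42 within its higher level (permutation p = 1e-05, rho -0.39). Ciart, a repressor of the activator pair, had r = -0.78 over all libraries and -0.47 in the higher Dbp level. Tef, a D-box activator, had -0.76 and -0.48, Bhlhe41, an E-box repressor, -0.70 and -0.43, and Usp2, a deubiquitinase under clock control, -0.67 and -0.35. Each of these had a permutation p of 1e-05 over all libraries, and rho from -0.63 to -0.53. Within blocks r stayed negative in 7 of 7, from -0.98 to -0.62 for Ciart and from -0.83 to -0.10 for Tef.

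The other output genes followed in order of r: Per3 -0.55, Hlf -0.52, Nr1d1 -0.50, Per2 -0.46, Cry2 -0.41, Bhlhe40 -0.36 and Per1 -0.32. Their rho ran from -0.40 for Nr1d1 to -0.26 for Per1, with permutation p of 1e-05 except 2e-05 for the rho of Per1. Inside the higher Dbp level these were weaker, between -0.30 for Hlf and -0.14 for Nr1d1. In the lower level Hlf had -0.51, Per3 -0.50, Per2 -0.47, Cry2 -0.41, Bhlhe40 -0.18, Per1 -0.11 and Nr1d1 0.13. In that fit restricted to the higher Dbp level, 11 of the 13 were called lower. Nr1d1 codes for a known repressor of Bmal1, and Ciart, Tef, Bhlhe41, Usp2, Per3 and Hlf had a lower r with Bmal1 than it had. The differences between these r were not tested.

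Over all libraries most of these genes were also lower with Clock and Npas2, at smaller r, but several were not within the Dbp levels. All 13 were called lower with Clock (median r -0.26, all genes 0.00875), beside 25.9% of all genes, and 11 of 13 with Npas2 (median r -0.31, all genes 0.0270), beside 29%. The genes most opposed to Clock over all libraries, outside Dbp, were Usp2 and Ciart (r = -0.48 each, rho -0.45 and -0.42, permutation p = 1e-05), and with Dbp r was -0.44 within its lower and -0.37 within its higher level. In the higher Dbp level Usp2 and Ciart had -0.27 and -0.20, and Nr1d2, Per3, Nr1d1, Per2 and Bhlhe40 had 0.18, 0.11, 0.04, 0.03 and 0.02. Within its own levels Nr1d2 had r = -0.30 with Clock in the lower (permutation p = 0.0484) and 0.09 in the higher (permutation p = 0.107). Against Npas2 the lowest outside Dbp and Nr1d2 was Bhlhe41 (r = -0.52, rho -0.51, permutation p = 1e-05), which kept -0.42 in the higher Dbp level. Within its own lower and higher levels Nr1d2 had -0.28 and -0.37 with Npas2 (permutation p of 0.0638 and 1e-05), and Dbp had -0.25 and -0.24 (permutation p of 0.0755 and 6e-05). Per3 (r = 0.03) and Hlf (r = -0.11) were not called with Npas2 over all libraries, and in the higher Dbp level Per3 had 0.37 and Hlf 0.065.

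Cry1 sorted the same genes differently. With Cry1, 7 of the 13 were called higher and 2 lower, the latter being Nr1d1 and Dbp, and the median r was 0.14 beside -0.0310 over all genes. The shares of all genes called in that fit were 15.5% higher and 24.8% lower. For Dbp r with Cry1 was 0.015 within its lower level and -0.16 within its higher level. Per2, whose protein works in complex with CRY1, had r = 0.59 with Cry1 (rho 0.53, permutation p = 1e-05 for each), with 0.63 and 0.67 in the lower and higher Dbp levels. Cry2 had 0.45, Hlf 0.39, Tef 0.27, Per1 0.27, Bhlhe40 0.20 and Usp2 0.14, and in the higher Dbp level these were 0.53, 0.49, 0.43, 0.30, 0.23 and 0.28. Nr1d2, not called with Cry1, had -0.29 within its own lower level and -0.047 within its higher. Nr1d1, which codes for a repressor of Cry1 as well as of Bmal1, had r = -0.52 (rho -0.57, permutation p = 1e-05 for each), negative in 7 of 7 blocks, and -0.69 and -0.59 in the Dbp levels. Within the Dbp levels the Cry1 and Nr1d1 relation thus kept its size, while the Bmal1 and Nr1d1 relation was much smaller. The split cannot compare the 2 relations, since Dbp follows Bmal1 far more than Cry1. Within the Dbp levels r of Dbp with Bmal1 was -0.78 and -0.53. Dividing by Dbp therefore narrows the range of Bmal1 more than that of Cry1.

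With Nfil3, 9 of the 13 were called lower and 2 higher over all libraries (median r -0.39, all genes -0.0274), beside 23.3% and 15.9% of all genes. Tef had -0.48, Per3 -0.46, Nr1d1, Bhlhe41 and Ciart -0.39 each, Hlf -0.30 and Usp2 -0.24. In the higher Dbp level all of these were smaller or of the other sign: Per3 had -0.24, Tef -0.22, Nr1d1 -0.15, Bhlhe41 -0.12, Hlf -0.079, Ciart -0.035 and Usp2 0.11. In the lower Dbp level Tef had -0.52, Per3 -0.43, Hlf -0.41, Bhlhe41 -0.30, Ciart -0.26, Nr1d1 -0.23 and Usp2 -0.12. Within their own lower and higher levels Dbp had -0.52 and -0.22 with Nfil3, and Nr1d2 -0.47 and -0.089 (permutation p = 0.127 for the latter). The 2 that were higher, Per1 (r = 0.38, rho 0.40, permutation p = 1e-05 for each, 0.60 in the higher Dbp level) and Bhlhe40 (r = 0.23, 0.48 in the higher Dbp level), are also induced by neuronal activity.

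Most output genes were called higher with the receptors and Csnk1e over all libraries. With Rora 11 of 13 were higher and 0 lower (median r 0.21, all genes 0.0107), beside 21.3% and 16.4% of all genes, led by Nr1d2 (0.35 within its higher level, 0.13 within its lower) and Usp2 (0.31, and 0.26 in the higher Dbp level). Dbp is among the 11, but within its lower and higher levels its r with Rora was 0.13 and -0.044 (permutation p of 0.39 and 0.457). With Rorb 10 of 13 were higher and 0 lower, but all weakly, with Hlf at 0.25 (0.24 in the higher Dbp level) and the median at 0.16 (all genes -0.0272), beside 14.2% and 22.7% of all genes. Nr1d2, one of the 10, had -0.14 and 0.16 with Rorb within its own levels (permutation p of 0.351 and 0.00701), and Dbp, which was not called, had 0.071 and 0.075. With Csnk1e 10 of 13 were higher and 0 lower (median r 0.20, all genes 0.0599), led by Per3 (r = 0.48, rho 0.48, permutation p = 1e-05 for each) and Per2 (r = 0.46, rho 0.47, permutation p = 1e-05 for each), which kept 0.47 and 0.41 in the higher Dbp level. The background of 40% called higher with Csnk1e stands beside that count. Dbp is among the 10 and had 0.13 and 0.098 within its levels (permutation p of 0.362 and 0.0951), while Tef, Ciart and Usp2 had 0.057, 0.082 and 0.092 in the higher Dbp level. Nr1d2, not called with Csnk1e, had 0.23 and -0.029 within its own levels. With Csnk1d 3 were higher (Cry2 0.28, Per1 0.17 and Bhlhe40 0.17) and 1 lower (Per3 -0.33), with a median r of 0.05 (all genes -0.0454), beside 22.4% and 37.3% of all genes. In the higher Dbp level these 4 had 0.33, 0.20, 0.20 and -0.39. The kinase genes thus had opposite signs with Per3. The difference between these correlations was not tested.

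**Figure D4:**
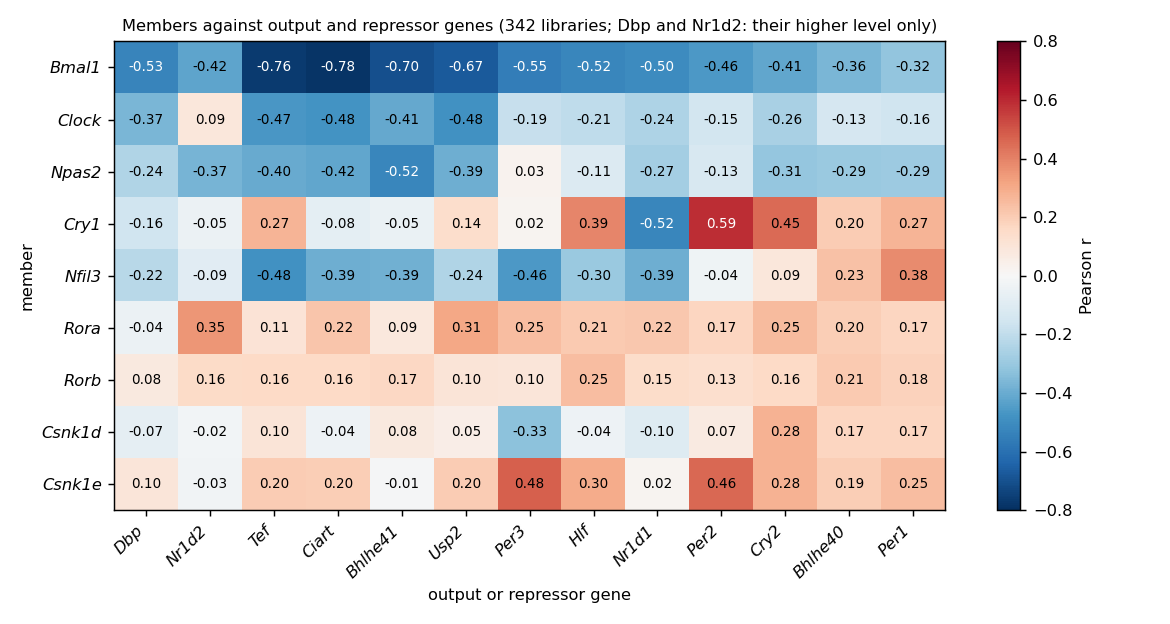
Pearson r of the 9 genes (rows) with 13 output and repressor genes (columns), over all libraries except for Dbp and Nr1d2, which are shown within their higher level only. The Bmal1 row is blue throughout (-0.78 for Ciart to -0.32 for Per1), and the Cry1 row turns from red for Per2 (0.59) to blue for Nr1d1 (-0.52).

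The 13 core and modifier genes (Bmal2, Timeless, Csnk1a1, Csnk2a1, Csnk2b, Gsk3b, Fbxl21, Btrc, Fbxw11, Prkaa1, Prkaa2, Sirt1 and Nampt) were mostly unrelated to Bmal1. In that fit 1 was higher, the ubiquitin ligase gene Btrc (r = 0.18, permutation p = 0.00067), whose rho was 0.08 (permutation p = 0.118) and whose r within the higher Dbp level was -0.12. None was called lower by limma, and 1 was at an unadjusted p under 0.05. The shares of all genes called in the Bmal1 fit were 8.39% higher and 10.2% lower. Nampt, an enzyme gene of NAD synthesis under E-box control, had r = -0.13 with Bmal1 (adjusted p = 0.0881) and 0.11 within the higher Dbp level, and Bmal2, a paralogue of Bmal1, had -0.03. With the other genes the counts stand beside the shares of all genes called in the same fit. With Clock 6 of 13 were higher and 1 lower (26.1% and 25.9% of all genes), among them the AMP kinase gene Prkaa2 (r = 0.45, rho 0.41, permutation p = 1e-05 for each) and the kinase gene Gsk3b (0.44), against Csnk2b (-0.37). Npas2 had 4 higher and 5 lower (37.8% and 29% of all genes), with Bmal2 at 0.36 and Fbxw11 at -0.33. Cry1 had 1 higher and 3 lower (15.5% and 24.8% of all genes), from Csnk1a1 at 0.13 to Timeless at -0.28. Nfil3 had 1 higher and 6 lower (15.9% and 23.3% of all genes), from Csnk2b at 0.15 to Prkaa2 at -0.29. Rora had 7 higher, with Gsk3b at 0.35, and 0 lower by limma, where 1 was lower at an unadjusted p under 0.05 (21.3% and 16.4% of all genes). Rorb had 5 higher and 1 lower (14.2% and 22.7% of all genes), with Gsk3b at 0.52 (rho 0.49, permutation p = 1e-05 for each) and Csnk2b at -0.25. Csnk1d had 2 higher and 6 lower (22.4% and 37.3% of all genes), from Fbxw11 at 0.24 to Bmal2 at -0.31. Csnk1e had 3 higher and 5 lower (40% and 22.3% of all genes), from Bmal2 at 0.30 to Gsk3b at -0.43.

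The letters around the Bmal1 start site were read because Bmal1 is the gene on which REV-ERB and ROR proteins are known to act. RefSeq promoter windows of 300 bases (250 before and 50 after a start site, GRCr8) were found for 7 of the 9 genes, in 8 windows. Cry1 and Csnk1d had no window, so their promoters were not searched. Among 33469 windows, searched on both strands, TAGGTCA, the core letters of the element that REV-ERB and ROR proteins share, was in 2.63%, and its variant TAGGTTA was in 1.61%. Of the 8 windows of the 9 genes, only that of Bmal1 held either, and it held both, on the strand of the gene, 52 and 16 bases before the start site and 36 bases apart. They are shown with 8 bases to each side and the motif in capitals, at chr1:176766268-176766290 and chr1:176766304-176766326.
Bmal1, farther site: tcggaaagTAGGTTAgtggtgcg
Bmal1, nearer site: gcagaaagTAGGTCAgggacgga
The window is built on a start site at 176766328, downstream of the one that the deposited table gives at 176766222, so a part of it may be transcribed from an upstream start.

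The E-box CACGTG, a palindrome bound by BMAL1 with its partners, was in 6.42% of all windows. It was in 0 of the 8 windows of the 9 genes, among which Cry1 and Csnk1d have no window and were not searched. Of the 12 output and repressor genes that have a window, 5 held it: Ciart with 3 matches, Bhlhe40, Bhlhe41, Nr1d1 and Tef. The nearest match of Ciart and those of Tef and Nr1d1 are shown for contrast, at chr2:186112254-186112275 (minus strand), chr7:115206621-115206642 (plus) and chr10:84229632-84229653 (minus).
Ciart, nearest match: cagagccgCACGTGtctgggag
Tef: tggcccagCACGTGtctacatc
Nr1d1: agctcccaCACGTGtctgggga
Its variant CACGTT was in 4.83% of windows and in those of Cry2, Nr1d1 and Per2. The D-box letters TTANGTAA were in 2.24% and in that of Per2, and TGGGTCA was in 4.09% and in none of these genes. A match describes the letters of a window and is not a measured binding site. Clock, Npas2, Nfil3, Rora, Rorb and Csnk1e had no match to any of the 6 motifs, which says only that these letters are not in these windows.

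Npas2 and Rora followed regional markers. With Npas2, 8 of 8 striatal markers were higher (median r 0.48, Pde10a 0.68) and 7 of 8 cortical and hippocampal ones (median 0.44, Tbr1 0.64), while 8 of 8 choroid plexus markers (median -0.50, Enpp2 -0.59) and 8 of 8 cerebellar markers were lower (median -0.39, Eomes -0.46). Oligodendrocyte markers were lower in 6 of 8 (Cnp -0.49). Among the remaining lists, more than 50% of the genes were also lower for heat shock genes (6 of 8, Dnajb1 -0.30), astrocytes (5 of 8, Aqp4 -0.42), neurons (5 of 8, Nefm -0.54), reference genes (5 of 8, Sdha -0.54), immediate early genes (7 of 12, Fos -0.26), hypothalamus (3 of 5, Lhx1 -0.54) and pineal (3 of 3, Lhx4 -0.43). In these lists 2 neuronal, 1 astrocyte, 1 reference and 1 hypothalamic gene were called higher, the last at r = 0.47. The cortical and hippocampal list held 1 gene called lower (r = -0.25). Of all genes 37.8% were called higher and 29% lower with Npas2. The summed CPM of these lists varied between libraries, from 768 to 1128 for the striatum, from 1896 to 2713 for cortex and hippocampus and from 582 to 1563 for the choroid plexus, with no marker at 0 in all libraries. The part of the striatum and of cortex and hippocampus in the relations of Npas2 was measured only as the values with marker scores as covariates, given above. Choroid plexus markers were not among those covariates, so their part was not tested.

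Rora was higher with 8 of 8 cerebellar markers (median r 0.41, Cbln3 0.46) and lower with 7 of 8 striatal (median -0.25, Penk -0.35) and 7 of 8 oligodendrocyte markers (median -0.17, Mbp -0.33), beside 21.3% of all genes higher and 16.4% lower. Without brain 4 the cerebellar median was 0.357. In brain 4 the granule cell genes Gabra6, Cbln3 and Fat2 were at levels of 1.03, 0.61 and 1.39, where the lowest of all other libraries had 6.32, 5.07 and 6.61. Its Rora level of 5.36 was 0.52 below the median. With Rorb, 5 of 8 striatal markers were lower (median -0.14, Penk -0.26), and 4 of 8 cortical and hippocampal ones were higher and 2 lower. Of all genes 14.2% were called higher and 22.7% lower with Rorb.

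No marker list had more than 50% of its genes called in 1 direction with Bmal1. By limma it had 0 of 8 cerebellar, 0 of 8 astrocyte, 0 of 8 choroid plexus and 0 of 12 immediate early genes called (0, 3, 1 and 0 at an unadjusted p under 0.05). It had 4 of 8 heat shock genes higher (median r 0.18), 4 of 8 microglial markers lower (median -0.12) and 3 of 8 oligodendrocyte markers lower (median -0.04). These stand beside 8.39% of all genes higher and 10.2% lower. Clock was higher with 6 of 8 cerebellar markers (median r 0.19, Fat2 0.25) and lower with 5 of 8 reference genes (median -0.27, Gapdh -0.48), 5 of 8 microglial markers (median -0.16, Aif1 -0.20), 5 of 8 cortical and hippocampal markers (median -0.16, Nrgn -0.32) and 3 of 5 hypothalamic ones (median -0.18, Oxt -0.22). Of all genes 26.1% were called higher and 25.9% lower with Clock.

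Nfil3 and Cry1 followed activity and stress genes. With Nfil3, 12 of 12 immediate early genes (median r 0.56, Egr2 0.63), 8 of 8 heat shock genes (median 0.52, Hspa8 0.58) and 6 of 8 glucocorticoid-responsive genes (median 0.34, Cdkn1a 0.54) were higher. With Cry1, 8 of 8 heat shock genes (median 0.47, Dnajb1 0.60), 8 of 8 glucocorticoid-responsive genes (median 0.39, Tsc22d3 0.55) and 9 of 12 immediate early genes (median 0.20, Fosb 0.30) were higher. Of all genes 15.9% were called higher with Nfil3 and 15.5% with Cry1. With Nfil3, 1 glucocorticoid-responsive gene was lower (r = -0.14). Cerebellar markers were higher in 5 of 8 with Nfil3 and in 6 of 8 with Cry1, with medians of 0.16 and 0.20. Eomes lay far above these medians (0.68 and 0.42), and 1 cerebellar marker was lower with Cry1 (r = -0.34). Nfil3 also had 5 of 8 neuronal genes (largest r Syt1 at -0.27, 2 being lower), 5 of 8 reference genes (Pgk1 0.29), 3 of 5 hypothalamic (Lhx1 0.20) and 2 of 3 pineal genes (Asmt 0.19) higher. Cry1 had 3 of 3 pineal genes higher (Lhx4 0.19) and 5 of 8 endothelial markers lower (Tek -0.31), beside 24.8% of all genes lower. The part of handling, stress or time of day in these relations was not tested.

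Csnk1d and Csnk1e were opposed in several lists. With Csnk1d 8 of 8 choroid plexus markers were higher (median r 0.34, Clic6 0.41), with Csnk1e 8 of 8 were lower (median -0.37, Enpp2 -0.50). Striatal markers were lower in 6 of 8 with Csnk1d (Rgs9 -0.49) and higher in 8 of 8 with Csnk1e (Rgs9 0.43). Cortical and hippocampal markers were lower in 6 of 8 with Csnk1d (Tbr1 -0.35) and higher in 7 of 8 with Csnk1e (Nrgn 0.34). Csnk1d was also higher with 8 of 8 glucocorticoid-responsive genes (Errfi1 0.31) and 7 of 8 heat shock genes (Hspa8 0.34), and Csnk1e with 12 of 12 immediate early genes at small r (median 0.22, Nr4a1 0.26). Csnk1e was lower with 6 of 8 astrocyte markers (Aqp4 -0.58), 7 of 8 cerebellar (Cbln3 -0.26), 5 of 8 neuronal (Nefm -0.51) and 2 of 3 pineal genes (Lhx4 -0.19). Csnk1d was higher with 6 of 8 cerebellar (Eomes 0.44), 6 of 8 astrocyte (Gfap 0.32) and 5 of 8 neuronal genes (Eno2 0.47). It was also higher with 5 of 8 reference (Pgk1 0.47) and 3 of 3 pineal genes (Lhx4 0.30). Against these, 2 astrocyte and 2 neuronal genes were lower with Csnk1d (down to r = -0.21 and -0.30). In the cortical and hippocampal list 1 gene was higher with Csnk1d (r = 0.18). Of all genes 22.4% were higher and 37.3% lower with Csnk1d, and 40% higher and 22.3% lower with Csnk1e.

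**Figure D5:**
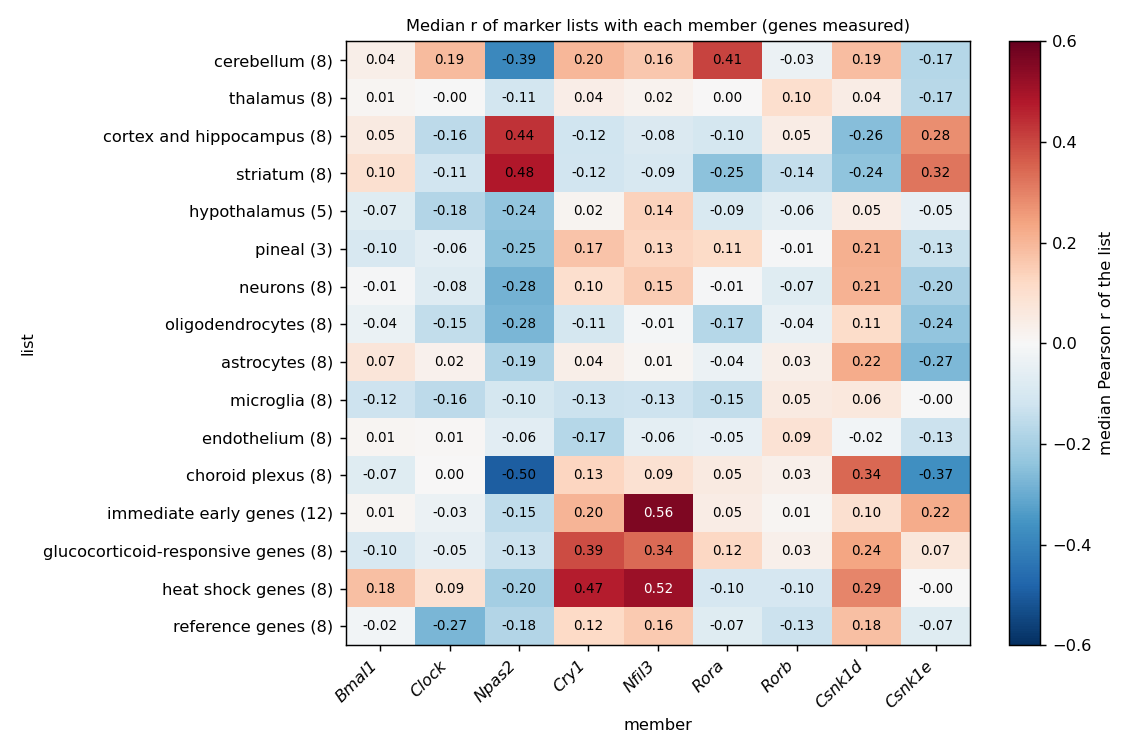
Median Pearson r over all libraries of 16 marker and programme lists (rows, with the number of genes measured) with each of the 9 genes (columns). Npas2 is red for striatum and cortex (0.48 and 0.44) and blue for choroid plexus (-0.50), Rora is red for cerebellum (0.41), Nfil3 for immediate early and heat shock genes (0.56 and 0.52), and the Bmal1 column is pale.

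Among 11403 named genes whose level averaged 3 or more, the genes most like each of the 9 were found by Pearson r over all libraries, as a description. For Bmal1 these were Mmp14, a membrane metalloproteinase gene, and Parvb, a focal adhesion gene (r = 0.62 each), and Lsm11 of the histone mRNA processing complex (0.58), and the least alike was Dbp. Within the higher Dbp level the 3 had r of 0.26, 0.25 and 0.23. For Clock they were Camsap2 (0.68), a microtubule minus-end gene, Dennd4a (0.66) and Ptpn4 (0.64), with Fkbp8 at -0.63, and these held in the higher Dbp level (0.72, 0.67, 0.67 and -0.66). For Npas2 they were Celf5 (0.81), a neuronal RNA-binding protein gene, Shisa7 (0.76), a receptor-associated protein gene, and Actn1 (0.74), with Laptm4b at -0.67.

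For Cry1 the most alike were St3gal4 (0.68), a sialyltransferase gene, Wee1 (0.67), a cell cycle kinase gene known as a clock target, and Slc38a2 (0.64), an amino acid transporter gene, with the oligodendrocyte gene Opalin at -0.67. For Nfil3 they were Eomes (0.68), Trib1 (0.64) and the immediate early gene Egr2 (0.63), with Fhod3 at -0.54. For Rora they were Lnpep (0.70), Cd47 (0.62) and Epb41 (0.61), with Arhgdia at -0.49. For Rorb they were Ksr2 (0.56), Fzd3 (0.53) and Ppp1r9a (0.53), with Ppp1ca at -0.45. For Csnk1d they were the glycolytic gene Pgam1 (0.54), Dynll2 (0.52) and Bcl2l1 (0.51), with Plag1 at -0.56. For Csnk1e they were the splicing factor gene Srsf2 (0.65), the splicing kinase gene Clk3 (0.64) and Slc25a42 (0.63), with Uhmk1 at -0.59. Rorb and Csnk1d had the lowest best likeness of the 9, and Npas2 the highest.

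Neighbours on the chromosome did not follow as a rule. Of the 18 nearest tested genes by start site, 1 on each side of each gene, 3 were called higher and 3 lower. Of all genes, 8.39% (Bmal1 fit) to 40% (Csnk1e fit) were called higher and 10.2% (Bmal1) to 37.3% (Csnk1d) lower. These counts thus do not set neighbours apart from other genes. LOC134480199, whose start lies 0.281 kb from that of Rora, had r = 0.36 with Rora (limma adjusted p = 1.41e-10), and reads could be shared between them if their transcripts overlap, which was not tested. Auh next to Nfil3 had 0.26, and Kcnj4 next to Csnk1e had 0.12. Slc16a3, 42.6 kb from Csnk1d, had -0.39, Pdcl3 next to Npas2 -0.32 and Tmem165 next to Clock -0.18.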

How the data were processed

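PolyA RNA from whole brain hemispheres was extracted with a TRIzol-based method and made into directional libraries, per the labels' protocols. Quantification used kallisto, per the submitters' processing notes; no version or setting is given in the sources used here. Values in the deposited table are on a log2 scale: 2 raised to a value, less 1, is an estimated count that is not scaled for depth, and 63.2% of such counts between 0.5 and 5 were whole within 0.002. The labels name 352 samples; 342 are in the table and 10 are not analysed here. The labels also state that 14 libraries were renamed. In the closest pair of libraries the chi-square over its degrees of freedom was 3.58, so none was counted as a repeat. Each mean ± SD, r and rho covers the 1 group (n = 342) unless a Dbp level (50 or 292 libraries), an Nr1d2 level (45 or 297) or a block is named.

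Counts were scaled to CPM and log2(CPM + 1) was taken; genes with a mean of at least 1 were tested. Every tested gene was regressed on each of the 9 genes with limma 3.58.1 in R 4.3.3 (mean-variance trend, Benjamini-Hochberg over all genes of a fit, adjusted p under 0.05), after the script was tested on simulated data. Pearson r and Spearman rho came with two-sided p from 100000 permutations, for 36 pairs and for 9 genes against 26 clock genes, within blocks of at least 8 libraries (7 blocks, 335 libraries) and within Dbp levels. An adjusted p quoted for 1 pair is that of the fit on the gene named before the other in the list. Separate levels came from mixtures of 1 to 3 normal components with a common SD (a BIC drop over 10, 4 SD apart, at least 5% of libraries). The trend of SD on level was a lowess fit with a fraction of 0.2 (statsmodels 0.14.6). Genes named were the 9, the clock lists, the 3 genes of highest and the 1 of lowest r for each, the list gene of largest absolute r where over 50% of a marker list was called in 1 direction, and neighbours. Results that need certain items are not reported here. The genes and lists were chosen with earlier results of these data known. Alternatives were a pseudocount of 0.1, median ratio scaling, other level minimums, fewer libraries, block means removed, and covariates; the Dbp-level analyses and leaving out brain 4 were chosen after seeing the data.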

Additional observations from a re-analysis of the deposited data

How the results depend on the processing

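No paired analysis was possible because the labels give 1 group and no replicate numbers. Of the 21 called pairs, 15 were called with the same sign in each of the 10 settings outside the Dbp levels. The spread ratio moved by more than its error for 1 gene and setting of 63, Csnk1e at 0.711 under median ratio scaling. Among pairs called over all libraries or under the setting itself, r changed sign for Clock with Cry1 (-0.14), Npas2 with Csnk1e (-0.033) and Csnk1d with Csnk1e (0.018) with marker scores as covariates, Clock with Csnk1d under median ratio scaling (0.015) and Clock with Nfil3 within the higher Dbp level (-0.019). Pairs called in neither changed sign too, as Bmal1 with Csnk1e (-0.12 over all libraries, 0.028 within the higher Dbp level) and Nfil3 with Rora (-0.052 and 0.068). The cause was not tested. Within the lower Dbp level, where only 50 libraries were fitted, limma called 0 pairs positive and 1 negative (7 and 2 at an unadjusted p under 0.05). There 3 genes were called higher and 5 lower with Bmal1. Of the other clock genes 0 were called higher and 3 lower, all 3 of them output genes (0 and 10 at an unadjusted p under 0.05). Within the higher Dbp level 881 genes were called lower with Bmal1, against 1697 over all libraries. Other settings kept every count within 1.5 times. Depth limits Nfil3 and Rorb most: their smallest libraries held 47 and 56 counts.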
